A study of Mus musculus with 4 samples.

Results

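The 10 T-cell and NK-cell genes described here are *Cd3d*, *Cd3e*, *Cd3g*, *Lck*, *Lat*, *Thy1*, *Gzma*, *Nkg7*, *Ccl5* and *Klrd1*, taken by name from the 23906 gene symbols measured. They were chosen with earlier results of these data known, so the counts below describe these genes and test nothing. Their RNA was measured in LSK-SLAM cells of *BRE-GFP* mice, the lineage-negative, Sca1-positive, cKit-positive cells that carry CD150 and lack CD48 and that are enriched for haematopoietic stem cells (HSCs). There were 4 libraries, each the only one of its group. These were FL GFP+ and FL GFP- from fetal liver (FL) at embryonic day 14, and BM GFP+ and BM GFP- from adult bone marrow (BM). All 4 groups carried the *BRE-GFP* transgene, in which Smad1/5 acting downstream of the BMP receptors switches on GFP, so that GFP+ cells are those with BMP signalling at the time of isolation and GFP- cells of the same tissue are the comparison fraction. The mice were kept on a C57BL/6 background, and the text used here does not say how many embryos or adults were pooled for a library. The sort discarded cells that bound antibodies to CD3, B220, Ter119 or Ly6c, and in the BM also CD11b. A difference between libraries has no replicate check, so no test was made and no p-value is given. Values are FPKM, sequenced fragments divided by transcript length and by library size, so that levels can be set side by side between genes.

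T cells recognise antigen through the T-cell receptor, whose chains reach the surface only with the CD3 proteins encoded by *Cd3d*, *Cd3e* and *Cd3g*. The kinase Lck starts the signal by phosphorylating the CD3 tails, and the adaptor Lat gathers the downstream enzymes. NK cells kill without such a receptor. They share with cytotoxic T cells a set of granule and chemokine genes, here *Gzma*, *Nkg7* and *Ccl5*, and carry CD94, the product of *Klrd1*, as part of their inhibitory and activating receptors. HSCs give rise to both lineages but carry neither receptor, and in mice *Thy1* is found at a low level on HSCs besides its high level on T cells.

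All 10 genes had a higher FPKM in each BM library than in either FL library. Of all symbols above 0 in any library, 21.2% had this order (3993 of 18859). Of the 10 genes, 5 were listed at 0 in both FL libraries, namely *Cd3e*, *Cd3g*, *Gzma*, *Ccl5* and *Klrd1*, and the lowest BM value of the 5 was 4.65 FPKM (*Klrd1* in BM GFP- cells). Within the BM, 7 of the 10 were more than 2 times higher in GFP+ than in GFP- cells, whereas *Lck*, *Lat* and *Nkg7* differed by less. The FPKM of the 10 genes summed to 23.8 (GFP+) and 24.1 (GFP-) in the FL, and to 909.1 (GFP+) and 474.2 (GFP-) in the BM.

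**Figure D1:**
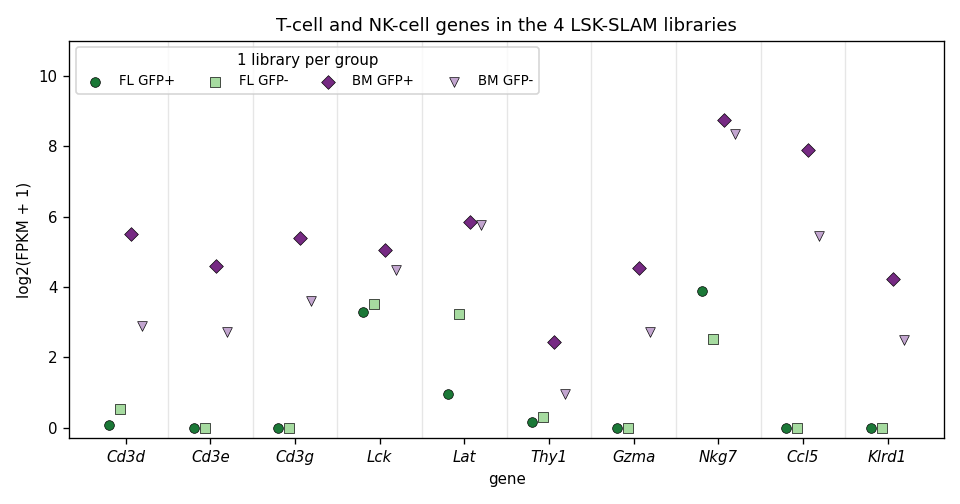
Level of each of the 10 genes in the 4 libraries, as log2(FPKM + 1) on the y axis, 1 point per library and no error bars because each group has 1 library. The BM points lie above the FL points for every gene, *Cd3e*, *Cd3g*, *Gzma*, *Ccl5* and *Klrd1* sit at 0 in both FL libraries, and the BM GFP+ and BM GFP- points lie close together for *Lat* and *Nkg7*.

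The libraries differed in more than these genes. Between 12372 and 17345 symbols were above 0, with fewer in the GFP+ than in the GFP- library of each tissue, and FPKM totals ran from 541453 in FL GFP- to 1.00085e+06 in BM GFP+ cells. The tissue labels were checked against 8 genes of fetal HSCs, all of which were lower in both BM libraries; *Igf2bp1* was at 426 (GFP+) and 58.8 FPKM (GFP-) in the FL, against 0 (GFP+) and 0.018 (GFP-) in the BM. No GFP row was used here, so which fraction is GFP+ rests on the labels. The libraries in the study's own plots may be in another order, and every GFP+ against GFP- value here holds for the libraries as labelled. BM GFP+ stood apart in most of the listed stem-cell genes. Of 12 genes of LSK-SLAM cells, 10 were more than 2 times lower in BM GFP+ than in BM GFP- cells, against 36.7% of all symbols tested. The median ratio was 0.32. *Cd34*, a surface sialomucin of progenitors, was at 48.4 FPKM (BM GFP+) against 182 (BM GFP-), and at 221 (GFP+) and 226 (GFP-) in the FL. *Ly6a*, which encodes the sort marker Sca1, and *Ptprc* went the other way. In BM GFP+ against BM GFP- cells, *Ly6a* was at 286 against 146 FPKM and *Ptprc* at 115 against 48.0. *Procr*, the HSC marker EPCR, was listed at 0 in BM GFP+ cells and at 60.8, 106 and 113 FPKM in the other 3 libraries (BM GFP-, FL GFP+, FL GFP-) (named after its values were seen). *Cd48*, whose protein the sort excluded, was at 51.4 (GFP+) and 17.4 FPKM (GFP-) in the FL and at 267 (GFP+) and 126 (GFP-) in the BM. For this reason the tissue comparison is given below for both fractions. BM GFP- alone was above both FL libraries for the same 10 genes, against 42.3% of all symbols. For the 10 genes this follows from the count above and is no further check.

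The sequence before the transcription start is shown for the CD3 genes, which lie together, for *Gzma*, an NK-cell and cytotoxic gene with the FL and BM pattern of *Cd3e* and *Cd3g*, and for *Nkg7*, which kept a measurable level in the FL. These 5 were picked after their values were known. RefSeq promoters (GRCm38.p6) matched 7 of the 10 genes, with 8 windows because *Lck* has both a distal and a proximal start. *Thy1*, *Ccl5* and *Klrd1* had no entry. Each line gives the 250 bases before the start, 5′ to 3′ on the strand of the gene. The windows are chr9:44981536-44981785 (+) for *Cd3d*, chr9:45009612-45009861 (-) for *Cd3e*, chr9:44980432-44980681 (-) for *Cd3g*, chr13:113100982-113101231 (-) for *Gzma* and chr7:43436888-43437137 (+) for *Nkg7*. Capitals mark the letters of 4 motifs read on both strands, AGGAAG of ETS factors, the E-box CAGNTG of E proteins, TGTGGT of RUNX factors and CTTTGA of TCF/LEF factors.
Cd3d: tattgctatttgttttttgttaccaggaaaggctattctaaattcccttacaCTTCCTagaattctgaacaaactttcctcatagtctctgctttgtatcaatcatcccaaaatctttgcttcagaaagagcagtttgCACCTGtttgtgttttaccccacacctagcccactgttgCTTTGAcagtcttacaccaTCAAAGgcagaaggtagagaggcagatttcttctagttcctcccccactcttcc
Cd3e: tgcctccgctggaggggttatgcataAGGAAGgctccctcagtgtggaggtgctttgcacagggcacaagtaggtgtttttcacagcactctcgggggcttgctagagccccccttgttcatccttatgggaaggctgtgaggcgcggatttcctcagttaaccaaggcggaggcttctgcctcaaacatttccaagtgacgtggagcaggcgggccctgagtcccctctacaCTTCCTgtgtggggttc
Cd3g: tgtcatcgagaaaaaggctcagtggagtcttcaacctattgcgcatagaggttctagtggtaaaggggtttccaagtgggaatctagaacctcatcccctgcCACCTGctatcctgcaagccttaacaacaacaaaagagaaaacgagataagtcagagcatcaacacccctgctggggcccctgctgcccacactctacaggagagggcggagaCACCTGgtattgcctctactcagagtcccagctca
Gzma: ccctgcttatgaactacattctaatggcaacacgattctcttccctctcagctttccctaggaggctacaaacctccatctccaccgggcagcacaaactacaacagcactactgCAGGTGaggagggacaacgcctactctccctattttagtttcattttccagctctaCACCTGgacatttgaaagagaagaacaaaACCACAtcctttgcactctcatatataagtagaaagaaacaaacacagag
Nkg7: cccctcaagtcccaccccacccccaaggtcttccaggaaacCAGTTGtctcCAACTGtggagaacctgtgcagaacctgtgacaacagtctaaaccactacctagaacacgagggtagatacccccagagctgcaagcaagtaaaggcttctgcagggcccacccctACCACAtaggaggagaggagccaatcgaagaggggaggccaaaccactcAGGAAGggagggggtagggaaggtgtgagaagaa

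The ETS letters were in 6 of the 8 windows and in 29.5% of 32851 RefSeq promoters of the same length. The E-box letters were also in 6 of 8 windows, against 44.8% of promoters, the RUNX letters in 3 of 8, against 14.05%, and the TCF/LEF letters in 1 of 8, against 13.8%. The TCF/LEF match was that of *Cd3d*, which held these letters at 73 and 54 bases before the start. *Cd3e* had ETS letters at 224 and 17 bases and no E-box, *Cd3g* had E-box letters at 148 and 35 bases and no ETS letters, and *Gzma* had E-box letters at 135 and 79 bases and RUNX letters at 50 bases. *Nkg7* had E-box letters at 209 and 199 bases, RUNX letters at 83 bases and ETS letters at 34 bases. No matches overlapped. The 5 windows thus held different combinations of the same letters, and those of *Cd3e* and *Cd3g* had none in common. A match describes letters and not binding.

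The 3 CD3 genes lie within 40.02 kb of chromosome 9 (NCBIM37, the mouse build the methods name). *Cd3g* (chr9:44777655-44788514, minus strand) and *Cd3d* (chr9:44789876-44795135, plus strand) point away from each other across 1.36 kb, and *Cd3e* (chr9:44806826-44817673, minus strand) lies 11.7 kb beyond *Cd3d*. Their products form the γ, δ and ε chains of CD3. In the FL, *Cd3d* was at 0.062 FPKM in the GFP+ and 0.453 in the GFP- library, and in the BM at 44.6 (GFP+) and 6.38 (GFP-). *Cd3e* was listed at 0 in both FL libraries and stood at 23.2 (GFP+) and 5.63 FPKM (GFP-) in the BM. *Cd3g* was likewise at 0 in both FL libraries, with 41.1 (GFP+) and 11.05 FPKM (GFP-) in the BM. All 3 were thus near or at 0 in the FL and highest in BM GFP+ cells, where they were 7.0, 4.11 and 3.72 times as high as in BM GFP- cells. In BM GFP+ cells they ranked 2919, 4500 and 3097 among all symbols by FPKM, and in BM GFP- cells 7652, 7966 and 6235. The CD3 protein itself was a target of the antibodies that removed lineage-positive cells.

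*Lck* (chr4:129225588-129250885, minus strand), the kinase bound to CD4 and CD8, was the member with the most even levels. Its FL levels were 8.84 (GFP+) and 10.3 FPKM (GFP-), and its BM levels 32.2 (GFP+) and 21.4 (GFP-). The row of *Mir8119* held the same 4 values, so that the level cannot be assigned to *Lck* alone. *Lat* (chr7:133507346-133513057, minus strand), the adaptor of T cells that platelets and mast cells also use, was at 0.942 (GFP+) and 8.37 FPKM (GFP-) in the FL and at 56.9 (GFP+) and 53.0 (GFP-) in the BM. *Lat* was thus 8.89 times higher in FL GFP- than in FL GFP+ cells, whereas its BM levels differed by 1.07-fold. *Thy1* (chr9:43851467-43856662, plus strand), the glycoprotein Thy-1 of T cells, lies 921 kb from the CD3 genes. It was the lowest member in the BM, at 4.39 (GFP+) and 0.96 FPKM (GFP-), against 0.111 (GFP+) and 0.231 (GFP-) in the FL. Its FL order was thus the reverse of its BM order.

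The cytotoxic and NK-cell genes held the highest member, *Nkg7*, and 3 of the 5 members at 0 in the FL. *Nkg7* (chr7:50692443-50693616, plus strand), a granule membrane protein needed for degranulation, was at 13.9 (GFP+) and 4.75 FPKM (GFP-) in the FL and at 429.8 (GFP+) and 323 (GFP-) in the BM. Its rank among all symbols was 344 (GFP+) and 353 (GFP-) in the BM, and it was the only member more than 2 times higher in FL GFP+ than in FL GFP- cells. *Ccl5* (chr11:83339280-83344020, minus strand), the chemokine RANTES, was at 0 in both FL libraries and at 237 (GFP+) and 42.6 FPKM (GFP-) in the BM. It was the second highest member in BM GFP+ cells, at rank 616, and lay below *Lat* in BM GFP- cells, at rank 2807. *Gzma* (chr13:113884033-113891187, minus strand), the tryptase granzyme A, was at 0 in both FL libraries and at 22.1 (GFP+) and 5.54 FPKM (GFP-) in the BM. *Klrd1* (chr6:129541800-129548793, plus strand), encoding CD94, was at 0 in both FL libraries and at 17.8 (GFP+) and 4.65 FPKM (GFP-) in the BM. *Gzma*, *Klrd1* and *Cd3e* were at nearly the same level in each BM library.

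**Figure D2:**
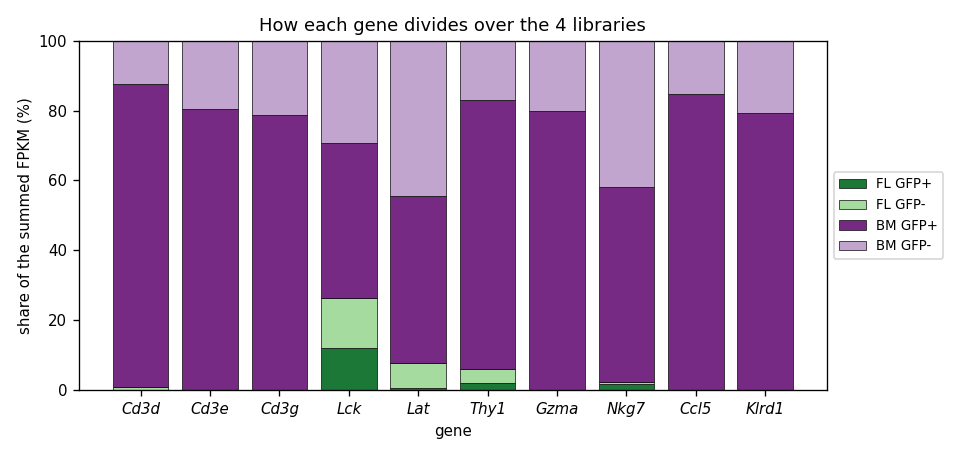
Share of the FPKM of each gene, summed over the 4 libraries, that came from each library (y axis, percent of the 4-library sum, 1 bar per gene). BM GFP+ holds between 44.3% (*Lck*) and 86.6% (*Cd3d*), the FL segments are absent for *Cd3e*, *Cd3g*, *Gzma*, *Ccl5* and *Klrd1*, and *Lck* alone has FL segments of 12.1% (FL GFP+) and 14.2% (FL GFP-).

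Within the FL, 5 of the 10 genes were above 0, and single genes lay on either side. Without *Nkg7* the members summed to 9.96 FPKM in GFP+ and 19.4 in GFP- cells, while *Nkg7* itself was higher in GFP+ cells. *Nkg7* was 2.92 times higher in GFP+ than in GFP- cells (1 of the 5 genes above 0, against 16.5% of the symbols above 0 in either FL library). *Cd3d*, *Lat* and *Thy1* were 7.27, 8.89 and 2.08 times higher in GFP- than in GFP+ cells (3 of the same 5, against 38.4% of symbols). *Lck* differed by 1.17-fold and the other 5 genes were at 0 in both. *Cd3d* and *Thy1* were below 1 FPKM in both FL libraries, so that on the log2(FPKM + 1) scale their differences, GFP+ minus GFP-, were -0.45 and -0.15, whereas that of *Lat* was -2.27 and that of *Nkg7* 1.37. The median difference was -0.20 over the 5 genes above 0 and -0.06 over all symbols above 0, and it was 0 when those at 0 in both libraries were kept in, for the 10 genes and for all symbols alike.

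Within the BM, most of the 10 genes were higher in GFP+ cells. *Cd3d* (7.0-fold), *Ccl5* (5.56), *Thy1* (4.57), *Cd3e* (4.11), *Gzma* (4.0), *Klrd1* (3.84) and *Cd3g* (3.72) were more than 2 times higher in GFP+ than in GFP- cells, 7 of 10 against 18% of the 17802 symbols above 0 in either library. None of the 10 was more than 2 times higher in GFP- cells, against 36.7% of symbols. *Lck* (1.51-fold), *Nkg7* (1.33) and *Lat* (1.07) were within 2-fold. The 5 genes at 0 in both FL libraries had ratios between 3.72 and 5.56, a narrower range than the 1.07 to 7.0 of the 5 genes above 0 there. On the log2(FPKM + 1) scale the median difference, GFP+ minus GFP-, was 1.77 over the 10 genes and -0.06 over all symbols tested. Only 5 of the 10 were above 0 in both tissues, and none of these was past 2-fold in the same direction in the FL and in the BM, against 19.5% of the 15035 symbols above 0 in both tissues. Of the same 5, *Cd3d*, *Lck*, *Lat* and *Thy1* were higher in GFP+ cells of the BM and lower in GFP+ cells of the FL (4 of 5, against 23.7% of symbols), though *Lat* not with equal FPKM totals or upper quartiles. RNA was taken from sorted bulk cells, in which a larger number of cells of a type and more RNA per cell cannot be told apart.

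Scaling the BM libraries to the same FPKM total lowered every log2 ratio of GFP+ over GFP- by 0.46, and scaling to the same upper quartile lowered it by 0.10. The 7 genes stayed above 2-fold, at 2.71 to 5.10 with equal totals, while *Lat* (0.782) and *Nkg7* (0.97) then lay below 1 and *Lck* was at 1.10. The share of all called symbols that were higher in GFP+ was 32.9% as deposited and 22.1% with equal totals.

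**Figure D3:**
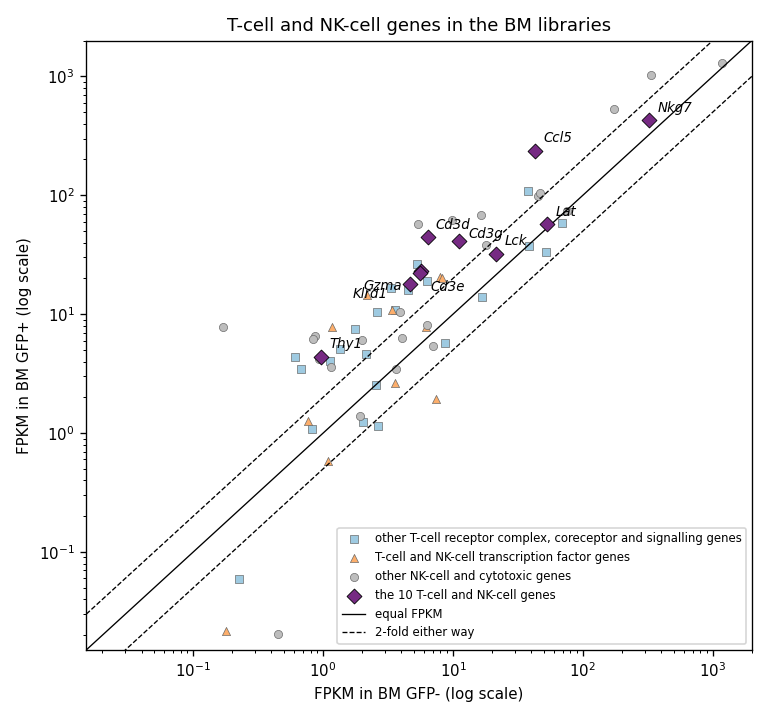
FPKM in BM GFP+ (y axis, log scale) against BM GFP- cells (x axis, log scale) for the 10 genes, named, and the genes of the 3 other T-cell and NK-cell lists with an FPKM above 0 in both libraries. The solid line marks equal FPKM and the dashed lines 2-fold either way; 7 named genes lie above the upper dashed line and *Lck*, *Lat* and *Nkg7* between the lines.

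Between tissues, the GFP+ libraries were compared with each other and so were the GFP- libraries, so that age and tissue changed together and cannot be told apart. All 10 genes were more than 2 times higher in BM GFP+ than in FL GFP+ cells, against 36% of symbols, and none was lower, against 27%. All 10 were also more than 2 times higher in BM GFP- than in FL GFP- cells, against 29.2%, and none was lower, against 21.9%. For genes above 0 in the FL, the ratios of BM GFP+ over FL GFP+ were 716 (*Cd3d*), 60.5 (*Lat*), 39.6 (*Thy1*), 31.0 (*Nkg7*) and 3.65 (*Lck*). The ratios of BM GFP- over FL GFP- were 68.0 (*Nkg7*), 14.1 (*Cd3d*), 6.34 (*Lat*), 4.16 (*Thy1*) and 2.07 (*Lck*). *Nkg7* was thus the one of these 5 with the larger tissue ratio in GFP- cells. The large ratio of *Cd3d* rests on 0.062 FPKM in FL GFP+ cells, and for the 5 genes at 0 in the FL no ratio is given. Median differences on the log2(FPKM + 1) scale, BM minus FL, were 4.73 in GFP+ and 2.62 in GFP- cells, against 0.07 and 0.05 over all symbols tested. With a pseudocount of 0.1 in place of 1 the medians of the 10 genes were 7.64 and 5.69, since 5 of them were at 0 in the FL.

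With equal FPKM totals or equal upper quartiles, *Lck* was 1.54 or 1.84 times higher in BM GFP- than in FL GFP- cells, so that 9 of 10 genes remained past 2-fold there. All 10 stayed past it in GFP+ cells. With equal totals the share of all called symbols that were higher in the BM moved from 57.1% to 43.4% in GFP+ and from 57.2% to 45.2% in GFP- cells.

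Other genes of these lineages were read from 3 lists of 65 genes in all. In both BM libraries 48 of the 65 were above both FL libraries, against 21.2% of all symbols above 0 in any library. Of the 65, 30 were at 0 in both FL libraries, and 19 of those 30 reached at least 1 FPKM in both BM libraries. Of all symbols, 7814 were at 0 in both FL libraries, and 256 of those did so. However, 5047 of the 7814 were at 0 in all 4 libraries, as were 3 of the 30. Between BM GFP+ and BM GFP- cells 34 were more than 2 times higher, 9 lower, 19 within 2-fold and 3 at 0 in both, with a median log2(FPKM + 1) difference of 0.85; 18% of all symbols tested were higher and 36.7% lower. Between FL GFP+ and FL GFP- cells 5 were higher, 18 lower, 12 within 2-fold and 30 at 0 in both, beside 16.5% higher and 38.4% lower of all symbols tested.

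Of 23 other genes of the T-cell receptor complex, its coreceptors and signalling, 13 were higher and 2 lower in BM GFP+ than in BM GFP- cells, with a median ratio of 2.87. *Cd2*, an adhesion receptor of T and NK cells, was at 0 in both FL libraries and at 108 (GFP+) and 37.5 FPKM (GFP-) in the BM, and thus followed the CD3 genes. *Cd27*, a receptor of the TNF family that HSCs and progenitors also carry, did not, with 41.98 (GFP+) and 83.1 FPKM (GFP-) in the FL and 57.9 (GFP+) and 69.2 (GFP-) in the BM. *Dntt*, the terminal transferase of early B and T progenitors, was at 0 in the FL and higher in BM GFP- (52.5) than in BM GFP+ cells (33.3). *Cd5*, a surface regulator of receptor signalling, was at 1.77 (GFP+) and 0 FPKM (GFP-) in the FL and at 7.54 (GFP+) and 1.76 (GFP-) in the BM. *Cd5* was therefore counted as past 2-fold in the GFP+ library of both tissues, though in the FL no ratio can be given because FL GFP- was at 0. Among genes named after their values were seen, *Cd8b1*, the CD8 β chain, was at 0 (GFP+) and 0.122 FPKM (GFP-) in the FL and at 15.8 (GFP+) and 4.53 (GFP-) in the BM, and *Rag1*, the recombinase of receptor gene assembly, was at 0 in the FL and at 0.059 (GFP+) and 0.224 (GFP-) in the BM.

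Of 12 transcription factor genes of T and NK cells, 5 were higher and 3 lower in BM GFP+ than in BM GFP- cells, with a median ratio of 1.67. *Tbx21*, encoding T-bet of type 1 T cells and NK cells, was at 0 in both FL libraries and at 14.4 (GFP+) and 2.17 FPKM (GFP-) in the BM. *Lef1*, a partner of β-catenin in T-cell development, was at 0 (GFP+) and 0.308 FPKM (GFP-) in the FL and at 20.5 (GFP+) and 7.99 (GFP-) in the BM. *Nfil3*, needed for NK-cell development, had FL levels of 0 (GFP+) and 3.45 FPKM (GFP-) and BM levels of 20.2 (GFP+) and 8.25 (GFP-). These 3 were highest in BM GFP+ cells. *Tox*, a nuclear factor of T-cell and innate lymphoid development, went the other way, with GFP+ against GFP- levels of 0.059 against 8.0 FPKM in the FL and 1.94 against 7.39 in the BM. *Bcl11b*, which T-cell commitment requires, was at 0 in both FL libraries and at 0.021 (GFP+) and 0.178 FPKM (GFP-) in the BM (named after its values were seen).

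Of 30 other NK-cell and cytotoxic genes, 16 were higher, 4 lower, 7 within 2-fold and 3 at 0 in the 2 BM libraries, GFP+ against GFP-, with a median ratio of 2.66. The highest were *Srgn*, *Tyrobp* and *Fcer1g*, which myeloid cells share. *Srgn*, the proteoglycan that packs granules, was at 413 (GFP+) and 409 FPKM (GFP-) in the FL and at 1290.4 (GFP+) and 1174 (GFP-) in the BM. Like *Nkg7*, it was higher in the BM and within 2-fold between fractions there. *Tyrobp*, the adaptor DAP12, was at 124 (GFP+) and 77.8 FPKM (GFP-) in the FL and at 1028 (GFP+) and 337 (GFP-) in the BM. *Klrk1*, the receptor NKG2D, was more than 2 times higher in GFP+ cells of both tissues, with 3.94 against 0.799 FPKM in the FL and 6.01 against 1.98 in the BM. *Xcl1*, *Il2rb* and *Prf1* were named after their values were seen. In BM GFP+ against BM GFP- cells, *Xcl1*, a chemokine of NK and CD8 T cells, was at 57.2 against 5.41 FPKM, *Il2rb*, the β chain of the interleukin-2 receptor, at 61.8 against 9.81, and *Prf1*, perforin, at 7.84 against 0.169. All 3 were at 0 in FL GFP+ cells. Other genes of this list, also named after their values were seen, were not higher in BM GFP+ than in BM GFP- cells. *Ncr1* was at 1.38 against 1.93 FPKM, *Klrb1c* at 3.45 against 3.63 and *Gzmk* at 5.43 against 7.08.

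Markers of other mature cells differed between the BM fractions in the same direction as the 10 genes. Of 12 B-cell genes, 10 were more than 2 times higher in BM GFP+ than in BM GFP- cells and none lower, with a median ratio of 3.76 and a summed FPKM of 4216 against 1180, and of 96.6 (GFP+) and 45.1 (GFP-) in the FL. Of 12 granulocyte genes, 8 were higher and none lower, with a median ratio of 4.58 and a summed FPKM of 65387 against 18058. Of 11 monocyte and macrophage genes, 8 were higher and 1 lower (median ratio 3.13), and of 10 erythroid genes, 6 were higher and none lower (2.17). The median ratio of the 10 T-cell and NK-cell genes, 3.92, lay inside this range. Of 8 dendritic-cell genes 4 were higher and 1 lower, of 8 mast-cell and basophil genes 4 were higher and 1 lower, and of 8 genes of group 2 innate lymphoid cells, which also carry Thy-1, 3 were higher, 2 lower and 3 (*Il5*, *Il13* and *Klrg1*) at 0 in all 4 libraries. The 11 megakaryocyte and platelet genes did not move this way, with 3 higher and 3 lower (0.777), nor did 8 genes used by every cell, all within 2-fold (0.944). The part of such cells in the levels of the 10 genes was not tested.

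**Figure D4:**
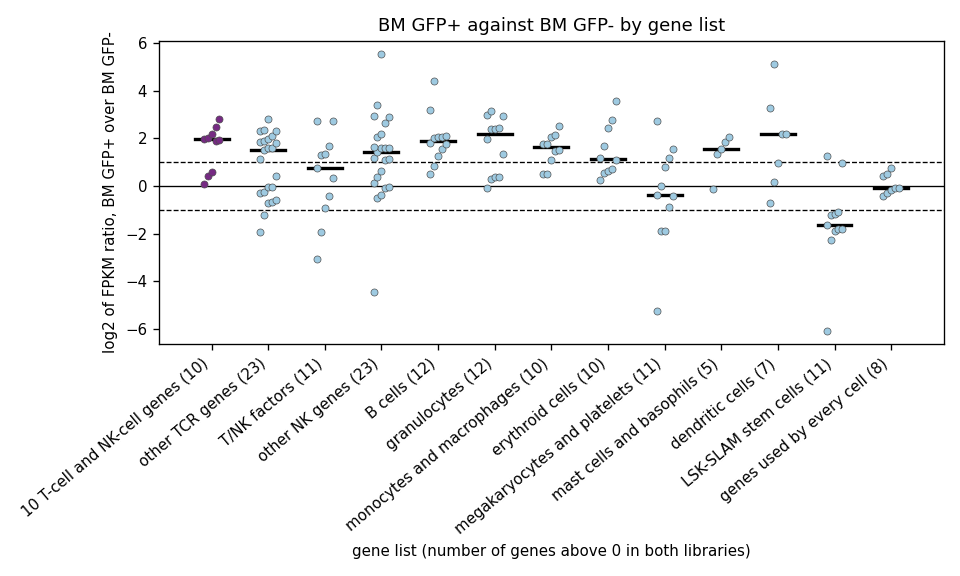
log2 of the FPKM ratio of BM GFP+ over BM GFP- cells (y axis) for the genes of each list that were above 0 in both libraries, whose number stands in brackets (x axis); each point is a gene, thick bars are medians, and dashed lines mark 2-fold. The medians of the 10 T-cell and NK-cell genes and of the B-cell, granulocyte, and monocyte and macrophage lists lie above the upper dashed line. So do those of the other T-cell receptor, other NK-cell, erythroid, mast-cell and basophil, and dendritic-cell lists. The median of the LSK-SLAM stem-cell genes lies below the lower dashed line, and the remaining medians lie between the dashed lines.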

How the data were processed

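RNA of 4 sorted LSK-SLAM libraries, 1 per group by the labels, was measured. The authors extracted it with the mirVana miRNA kit, made SMARTer libraries, sequenced them on a HiSeq2000, mapped the reads with Bowtie and TopHat, and computed FPKM with Cufflinks 2.2.1, Cuffquant (corrected for fragment bias and multiply mapped reads) and Cuffnorm (geometric scaling over all libraries). The methods name NCBI37/mm9, whereas the submitters' processing notes list mm10; gene positions here are GENCODE vM1 on NCBIM37. The deposited FPKM values have no read counts or errors beside them, so the counting error of a value could not be computed; the study states the number of mapped reads per library, which is not repeated here. A gene listed at 0 may be below detection. *Lck* and *Mir8119* have identical rows.

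Each comparison counted genes whose FPKM in 1 library was more than 2 times that in the other, the study's fold applied to each pair of libraries by itself (the study asks for it in both tissues at once), among symbols above 0 in either, and took differences of log2(FPKM + 1). With 1 library per group no test was made. The members and all lists were chosen with earlier results of these data known. Genes named from the other lists are the 3 with the highest FPKM in any library of those lists, those of the T-cell and NK-cell lists past 2-fold in the same direction in both tissues at 1 FPKM or more, and *Cd48* and *Cd3e* as sort markers; others are marked as named after their values were seen. Alternatives were folds of 1.5 and 4, pseudocounts of 0.1 and 1, a floor of 1 FPKM, equal FPKM totals, equal upper quartiles, and leaving out *Lat*, *Thy1* and *Ccl5*, which other blood cells also express. The code was tested on simulated data. Python 3.11.15, numpy 2.4.6, pandas 2.3.3 and matplotlib 3.10.9 were used.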

Additional observations from a re-analysis of the deposited data

Results flagged for a closer look

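Of the 10 genes, 5 were above 0 in both tissues, and 4 of these 5 had opposite directions, higher in GFP+ cells of the BM and lower in GFP+ cells of the FL. Of all symbols above 0 in both tissues, 23.7% had these directions. Each direction rests on 1 library per group. The difference between tissues was not tested. Taken as the GFP+ minus GFP- difference of log2(FPKM + 1) in the BM less that in the FL, it was 3.08 for *Cd3d*, 2.37 for *Lat*, 1.61 for *Thy1* and 0.77 for *Lck*. *Cd3d* and *Thy1* were below 1 FPKM in both FL libraries. The BM ratio of *Lat*, 1.07 as deposited, was 0.782 with equal FPKM totals, where its directions in the tissues were the same.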

How the results depend on the processing

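Each group had 1 library, so no replicate could be left out and no spread between replicates was available. No paired analysis was possible because the results come from no test. Of the counts over the 10 genes, 62 under an alternative stayed within 1.5 times of the value as reported and 5 did not. The 62 include all counts of genes lower in BM GFP+ than in BM GFP- cells, or lower in the BM than in the FL. Those counts were 0 under every setting. Also among the 62 are the counts of 7 in place of 10 when *Lat*, *Thy1* and *Ccl5* were left out. With a fold of 4, 0 genes in place of 1 were higher in FL GFP+ than in FL GFP- cells, and 4 in place of 7 were higher in BM GFP+ than in BM GFP- cells. The count of genes lower in FL GFP+ cells was 1 in place of 3 with a floor of 1 FPKM, with a fold of 2 on FPKM + 1, and without *Lat*, *Thy1* and *Ccl5*, which leaves fewer genes. The cause was not tested for the others. No value past 2-fold changed direction, whereas *Lck* in BM GFP- against FL GFP- cells came under 2-fold with both scalings, and the BM ratios of *Lat* (both scalings) and *Nkg7* (equal totals), which were within 2-fold, crossed 1. The median difference between the BM fractions ran from 1.33 with equal FPKM totals to 1.95 with a pseudocount of 0.1. The median differences of BM over FL ran from 4.18 (equal totals) to 7.64 (pseudocount of 0.1) in GFP+ and from 2.57 to 5.69 in GFP- cells. Counting genes with both BM libraries above both FL libraries under both scalings was chosen after seeing the data and gave 10 of 10 each time. The count without BM GFP+, chosen likewise and among the 62, had to be 10 of 10. Both BM libraries were already above both FL libraries for every gene. Without read counts, differences among genes below 1 FPKM, such as *Cd3d* and *Thy1* in the FL, have no known precision.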

Other observations

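The granulocyte list divided in the BM by its genes. *Mpo*, *Elane*, *Prtn3* and *Ctsg*, enzymes of the primary granules made by early precursors, had ratios of GFP+ over GFP- of 1.22, 1.31, 1.29 and 0.943. The other 8 genes, among them *S100a8* and *S100a9* of mature neutrophils, had ratios between 2.57 (*Mmp8*) and 8.97 (*Camp*). The B-cell list did not divide in this way. *Vpreb1* and *Igll1*, which encode the surrogate light chain of early precursors, had ratios of 1.44 and 1.79, whereas *Ebf1* and *Pax5*, factors of early B-cell commitment, had the highest of the list, 9.12 and 21.5, and *Ms4a1*, encoding CD20, was at 4.28. Most of these genes were named after their values were seen, and no division was tested.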
